A study of Mus musculus with 12 samples.

Results

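Goblet cell genes, the mucins and secreted factors that make up and organise intestinal mucus, were followed by tissue and genotype in laser-microdissected epithelium of APCmin/+ mice. The set held 10 genes: Muc2, Tff3, Agr2, Fcgbp, Clca1, Zg16, Spink4, Retnlb, Spdef and Creb3l1. A gene was measured by the probe set assigned to its symbol alone, and 9 of the 10 had such a probe set, among 19938 genes measured in all. Fcgbp, which encodes a mucus protein bound to MUC2, shared its probe sets with other genes and was not measured.

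Each of 12 arrays held RNA from epithelium cut out of stained sections, either of intestinal tumors or of the epithelium next to them. All mice were males of strain C57BL6/J with the APCmin/+ allele, which gives rise to intestinal adenomas, and intestines were taken at 25 weeks of age. The FSPCre-PPARB -/- mice, called KO, carried Cre under the promoter of fibroblast-specific protein, which is meant to remove PPAR-beta/delta from fibroblasts, whereas the dissected tissue was epithelium. Their littermates, called floxed, were PPARB flox/flox. The labels gave 3 KO and 3 floxed arrays of tumor epithelium, and 2 KO and 2 floxed arrays of adjacent epithelium. The genotype of a further 2 adjacent arrays was contradicted within the labels: the title of conflict array 1 said KO where its genotype field said floxed, and for conflict array 2 it was the other way round. Those arrays entered no main genotype comparison, only alternatives that grouped them by title or by characteristic. No label ties an array to an animal, so some arrays may come from the same mouse. In that case the p-values below are too small, and the spread between arrays is partly technical.

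Goblet cells are secretory cells scattered through the intestinal epithelium. They fill their granules with MUC2, a large O-glycosylated mucin that polymerises into the mucus gel, and this load depends on an expanded endoplasmic reticulum. SPDEF is a transcription factor that drives goblet cell maturation, and CREB3L1 is a membrane-bound transcription factor of the secretory pathway. In bulk epithelium, fewer goblet cells and less RNA per goblet cell cannot be told apart.

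The promoters of Agr2, Spdef and Muc2 are shown because these genes stand for the folding enzyme, the transcription factor and the mucin described below. Promoter sequences came from RefSeq on GRCm38.p6 and ran from 250 bases before to 50 bases after the transcription start that the table lists. Of the 10 genes, 4 were in the promoter table: Muc2, Agr2, Spdef and Fcgbp. They were searched on both strands for CAGGAT, which holds the GGAT core that SPDEF prefers. Its letters, or their reverse complement ATCCTG, are in capitals in the strand of the gene, 5′ to 3′.
Agr2: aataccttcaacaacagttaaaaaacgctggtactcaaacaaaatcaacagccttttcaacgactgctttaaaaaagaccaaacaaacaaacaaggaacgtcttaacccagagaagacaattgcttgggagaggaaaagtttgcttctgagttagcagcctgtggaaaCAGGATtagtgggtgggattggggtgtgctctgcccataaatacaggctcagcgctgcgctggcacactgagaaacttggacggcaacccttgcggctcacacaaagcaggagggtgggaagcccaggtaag
Spdef: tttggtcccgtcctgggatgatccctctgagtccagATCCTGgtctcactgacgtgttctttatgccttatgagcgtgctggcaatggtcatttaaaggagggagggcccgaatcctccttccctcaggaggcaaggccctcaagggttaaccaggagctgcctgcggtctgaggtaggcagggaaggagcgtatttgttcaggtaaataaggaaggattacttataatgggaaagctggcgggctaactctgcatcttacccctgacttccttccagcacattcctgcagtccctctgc
Muc2: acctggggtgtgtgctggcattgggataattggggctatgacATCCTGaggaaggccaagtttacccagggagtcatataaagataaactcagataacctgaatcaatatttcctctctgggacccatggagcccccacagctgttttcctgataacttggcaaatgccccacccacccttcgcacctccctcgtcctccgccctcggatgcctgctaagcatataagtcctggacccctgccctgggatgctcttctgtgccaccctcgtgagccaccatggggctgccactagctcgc
These windows are chr12:35992675-35992974 on the plus strand, chr17:27728902-27729201 on the minus strand and chr7:141690090-141690389 on the plus strand. The start listed for Agr2 and Muc2 is the upstream end of the gene in RefSeq. For Spdef it is position 27728951, inside the gene and 2052 bases downstream of its upstream end, so this window does not cover the upstream end of Spdef. Counted from the listed starts, the match began at base −82 for Agr2, at −214 for Spdef and at −208 for Muc2. CAGGAT occurred in 3 of the 4 promoters, against 16.2% of 32851 mouse promoters of the same length. CAGCTG, an E-box of the type bound by ATOH1, occurred in 2 of the 4 (Muc2 and Fcgbp), against 16.3% of all promoters. ACGTG, a core of CREB-type and stress-response sites, occurred in 1 of the 4 (Spdef), against 19.6%. A match describes these letters only and is not a binding site.

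The arrays differed in signal, and this split runs through every comparison of genotypes. A set of 4 floxed arrays, numbers 1 and 2 of each tissue, gave correlations with the remaining arrays of 0.496 to 0.64 over all probe sets, with SDs of 1.04 to 1.09 (log2). The other 8 arrays correlated with each other at 0.812 to 0.973 and had SDs of 1.49 to 1.57. The 4 arrays are called weak-signal arrays. Floxed tumor array 3 was the one floxed array outside them, and both floxed adjacent arrays were among them, so in adjacent epithelium weak signal and genotype cannot be told apart. The median of unnamed probe sets, a background level, was 4.24 to 4.39 on the weak-signal arrays and 3.85 to 3.94 on the others. Ppard, the floxed gene, read 6.06 to 6.50 in KO tumor, against 4.48 to 5.79 in floxed tumor, and 5.51 to 5.76 in KO adjacent, against 4.61 to 5.09 in floxed adjacent epithelium, so it was not lower where KO was the label. Whether its probes lie in the excised sequence was not tested. Epithelial marker genes averaged 6.19 to 7.27 in KO tumor and 4.86 to 8.18 in floxed tumor epithelium, and 6.90 to 6.99 in KO adjacent and 5.09 to 5.22 in floxed adjacent epithelium.

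The goblet cell genes were detected unevenly. Tff3, Agr2, Zg16, Spink4 and Creb3l1 lay above the median of unnamed probe sets on 12 of 12 arrays. Muc2, Clca1 and Spdef lay above it on 11 of 12 arrays, each missing it on 1 weak-signal array. Retnlb, which encodes a resistin-like protein secreted by goblet cells, lay above it on 1 of 12 arrays, so its values are near background and say little of its level.

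**Figure D1:**
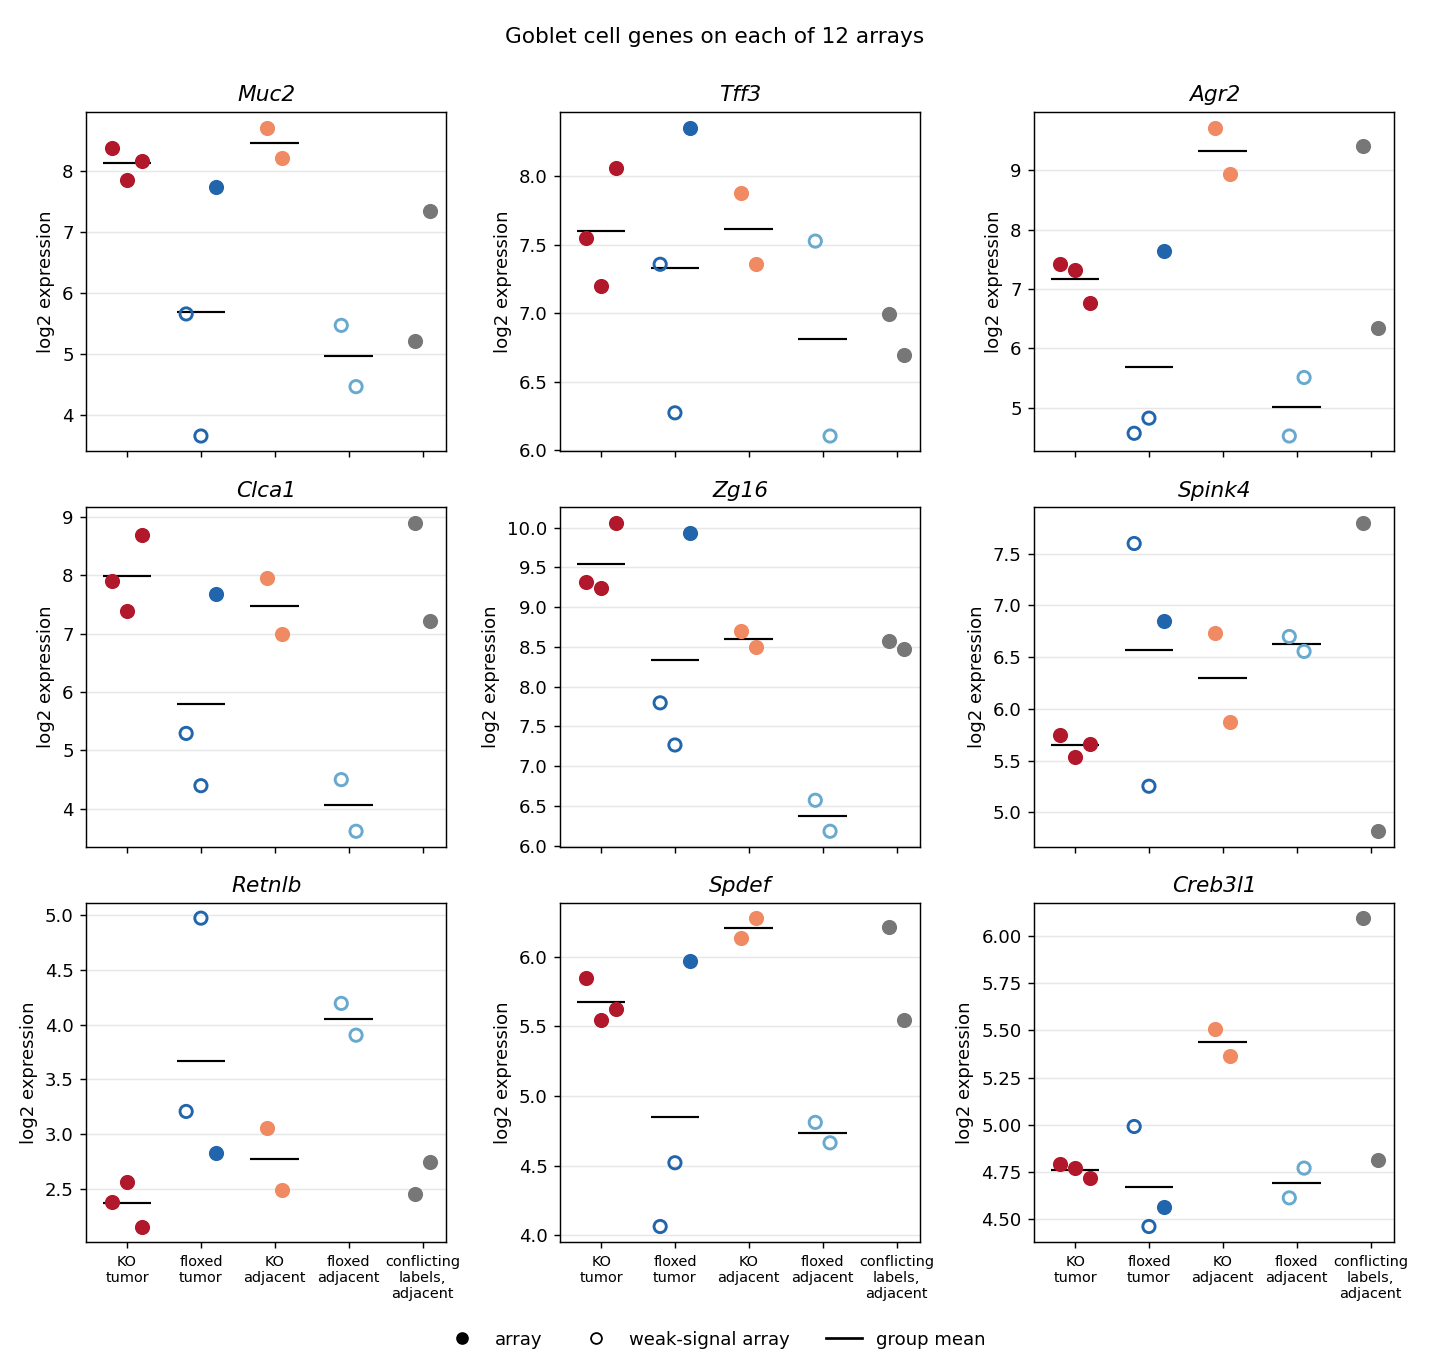
Log2 expression (vertical axes) of 9 goblet cell genes on each of 12 arrays, by tissue and genotype label; open circles are weak-signal arrays and bars are group means, with no bar for the arrays of conflicting labels. For Agr2, Clca1, Zg16 and Spdef the 4 weak-signal arrays lie below the other 8, and for Retnlb they lie above. The share of all genes that separate in this way was not counted.

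Several of the genes were ordered along the signal split, in which all 4 weak-signal arrays carry the floxed label. Agr2 ran from 6.34 to 9.72 on the 8 other arrays, and from 4.52 to 5.51 on the 4 weak-signal arrays. Clca1 ran from 6.998 to 8.90 on the other arrays and from 3.61 to 5.29 on the weak-signal arrays. Zg16 ran from 8.48 to 10.06 against 6.18 to 7.80, and Spdef from 5.55 to 6.28 against 4.06 to 4.81. In these 4 genes the sets of arrays did not overlap. The share of all genes that separate in this way was not counted. The order is therefore not shown to be particular to goblet cell genes. Retnlb went the other way, from 2.16 to 3.05 on the other arrays and from 3.21 to 4.97 on the weak-signal arrays. Muc2, Tff3, Spink4 and Creb3l1 overlapped between the sets.

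The comparison named in the series title sets KO against floxed tumor epithelium. None of the 9 goblet cell genes passed the test there (0 of 9 at a limma adjusted p under 0.05, against 1.08% of all genes), and 3 had an unadjusted p under 0.05, against 23% of all genes. With the replicate number of the titles as a block, 2 passed, Muc2 and Clca1, both higher in KO (2.15% of all genes were called higher in that fit). The difference was above 0 for 7 of 9 genes, against 49.6% of all genes, with a median of 0.82, against −0.01 over all genes (log2).

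Muc2, the gel-forming mucin, read 8.38, 7.86 and 8.17 on the KO tumor arrays, against 5.66, 3.65 and 7.75 on the floxed tumor arrays (log2). The 3 KO arrays lay together and above all 3 floxed arrays, of which the weak-signal arrays 1 and 2 were the low ones. KO minus floxed was 2.45 ± 0.78 (SE, n = 3 and 3; limma adjusted p = 0.115), and with the replicate block the adjusted p was 0.0409. Against floxed tumor array 3 alone the difference was 0.38 ± 0.26 (adjusted p = 0.329).

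Clca1, a secreted protease that processes the mucus network, read 7.90, 7.38 and 8.69 in KO tumor, against 5.29, 4.39 and 7.68 in floxed tumor epithelium. Floxed tumor array 3 lay within the KO range. KO minus floxed was 2.21 ± 0.71 (SE, adjusted p = 0.118, and 0.0175 with the replicate block), and 0.32 ± 0.49 against floxed tumor array 3 alone. Zg16, a lectin that binds bacterial cell walls in mucus, read 9.32, 9.24 and 10.06 in KO tumor, against 7.80, 7.27 and 9.93 in floxed tumor epithelium. Its difference was 1.21 ± 0.56 (SE, adjusted p = 0.226), and it was −0.39 ± 0.31 against floxed tumor array 3 alone. Again array 3 sat among the KO arrays.

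Agr2, a protein disulfide isomerase of the endoplasmic reticulum needed to make MUC2, read 7.41, 7.31 and 6.77 in KO tumor, against 4.57, 4.82 and 7.64 in floxed tumor epithelium. Floxed tumor array 3 was higher than every KO tumor array. The difference was 1.49 ± 0.68 (SE, adjusted p = 0.22) with 3 floxed arrays and −0.48 ± 0.34 against array 3 alone. Spdef had the same order of arrays 1 and 2 against 3, with 5.84, 5.55 and 5.63 in KO tumor, against 4.06, 4.52 and 5.97 in floxed tumor epithelium, a difference of 0.82 ± 0.41 (SE, adjusted p = 0.252) and −0.29 ± 0.19 against array 3 alone.

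The other goblet cell genes gave small or opposite values. Tff3, the trefoil peptide of goblet cell granules, read 7.54, 7.20 and 8.06 in KO tumor, against 7.36, 6.27 and 8.35 in floxed tumor epithelium (difference 0.27 ± 0.52, SE). Creb3l1 read 4.79, 4.77 and 4.72 in KO tumor, against 4.99, 4.46 and 4.56 in floxed tumor epithelium (difference 0.09 ± 0.22, SE). Both pairs of groups overlapped. Spink4, a small secreted protein with a Kazal domain, read 5.75, 5.53 and 5.66 in KO tumor, against 7.60, 5.25 and 6.85 in floxed tumor epithelium, a difference of −0.92 ± 0.49 (SE, adjusted p = 0.287). Retnlb differed by −1.30 ± 0.47 (SE, adjusted p = 0.144), with all KO tumor arrays, 2.38, 2.57 and 2.16, below the floxed ones, 3.21, 4.97 and 2.82. Non-overlap was thus seen for 1 gene higher (Muc2) and 1 lower (Retnlb), against 13.2% and 13.9% of all genes.

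Without the weak-signal arrays, the 3 KO tumor arrays were set against floxed tumor array 3, a lone array assumed to vary like the others. In that fit 1 goblet cell gene passed, Spink4, lower in KO with a difference of −1.20 ± 0.30 (SE, limma adjusted p = 0.0272), and 9.92% of all genes were called lower. The median of the 9 differences was then −0.39. Of the goblet cell genes, Tff3, Agr2, Zg16 and Spdef changed sign, while Muc2, Clca1 and Creb3l1 stayed above 0. Enterocyte genes had a median difference of 0.92 with all floxed arrays and −1.35 against array 3 alone. The median of the 7 epithelial markers turned as well, from 0.46 to −1.48, so the turn was not particular to goblet cell genes. What array 3 holds beyond its label was not tested.

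**Figure D2:**
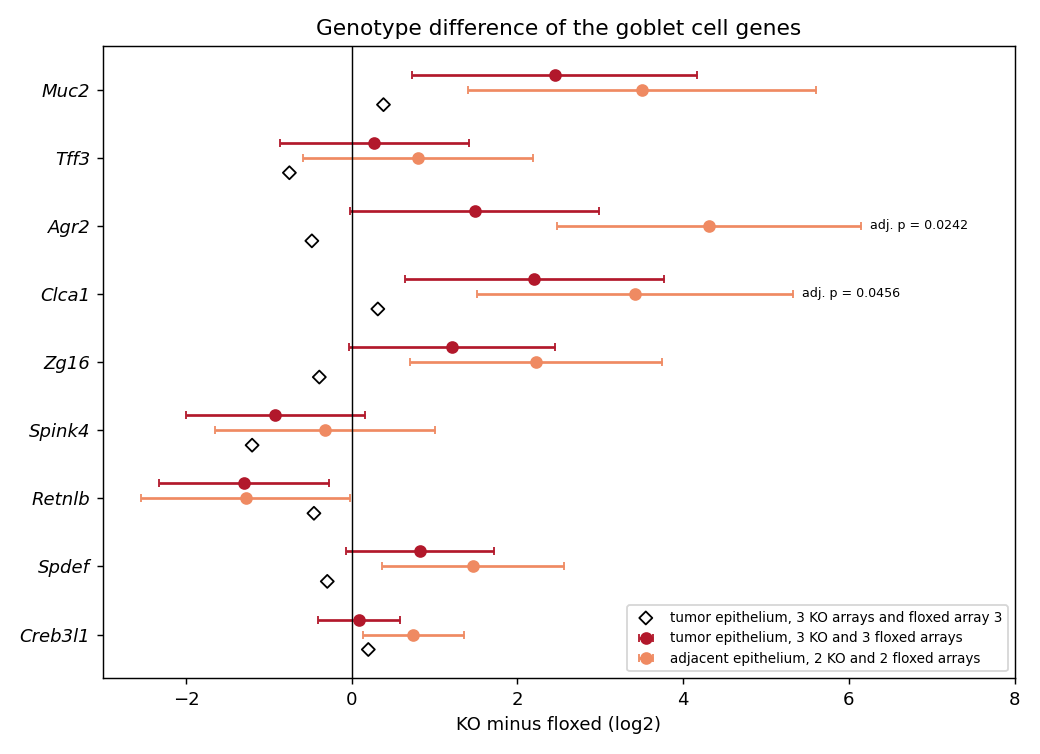
KO minus floxed difference (log2, horizontal axis) of 9 goblet cell genes, as filled circles with 95% confidence intervals from the fit of 10 arrays, in tumor and in adjacent epithelium; open diamonds set the 3 KO tumor arrays against floxed tumor array 3 alone. Agr2 and Clca1 passed the test in adjacent epithelium (adjusted p = 0.0242 and 0.0456), and 4 of the 7 genes with a tumor difference above 0 have a diamond below 0.

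In adjacent epithelium 2 of the 9 goblet cell genes were higher in KO, Agr2 and Clca1, and none was lower (6.06% of all genes were called, 2.91% higher and 3.15% lower). Agr2 read 9.72 and 8.94 on the KO adjacent arrays, against 4.52 and 5.51 on the floxed adjacent arrays, with KO minus floxed at 4.31 ± 0.83 (SE, 2 arrays each; limma adjusted p = 0.0242). Clca1 read 7.95 and 6.998 in KO, against 4.50 and 3.61 in floxed adjacent epithelium, and differed by 3.42 ± 0.87 (SE, adjusted p = 0.0456). In both genes the groups were far apart, and both floxed arrays were weak-signal arrays. Neither gene passed when any 1 of the 4 arrays was left out, when the arrays were quantile normalized again (Agr2 3.89, adjusted p = 0.0514, and Clca1 3.34, adjusted p = 0.0758), or when the conflict arrays were grouped by title or by characteristic (Agr2 3.90 and 1.85).

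The other mucus genes followed the same order without passing. Muc2 read 8.72 and 8.21 in KO, against 5.47 and 4.46 in floxed adjacent epithelium (difference 3.50 ± 0.95, SE, adjusted p = 0.0538). Zg16 read 8.70 and 8.50 in KO, against 6.57 and 6.18 in floxed adjacent epithelium (2.23 ± 0.69, SE, adjusted p = 0.0721). Spdef read 6.13 and 6.28 in KO, against 4.81 and 4.66 in floxed adjacent epithelium (1.47 ± 0.50, SE, adjusted p = 0.09). These groups did not overlap. Creb3l1 read 5.51 and 5.37 in KO, against 4.61 and 4.77 in floxed adjacent epithelium, a difference of 0.75 ± 0.28 (SE, adjusted p = 0.112). In all, 6 genes lay higher without overlap, against 32.1% of all genes, and Retnlb lay lower (3.05 and 2.49 in KO, against 4.19 and 3.90 in floxed adjacent epithelium), against 35% of all genes.

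Tff3 and Spink4 overlapped between the adjacent groups. Tff3 read 7.87 and 7.36 in KO, against 7.53 and 6.10 in floxed adjacent epithelium (difference 0.80 ± 0.63, SE). Spink4 read 6.73 and 5.87 in KO, against 6.70 and 6.56 in floxed adjacent epithelium (difference −0.32 ± 0.60, SE). The difference was above 0 for 7 of 9 genes, against 47.6% of all genes, and the median was 1.47, against −0.05 over all genes.

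Genes that serve mucin production were read from lists on the same arrays. Of 31 measured genes of the secretory endoplasmic reticulum, 5 rose and 0 fell in KO adjacent epithelium, against 2.91% of all genes higher and 3.15% lower, with a median difference of 1.03. Pdia3, a disulfide isomerase of glycoprotein folding, was higher by 3.39 ± 0.46 (SE, limma adjusted p = 0.00893). The translocon-associated subunit Ssr2 was higher by 2.68 ± 0.44 (adjusted p = 0.0163), the signal peptidase subunit Spcs1 by 2.79 ± 0.60 (adjusted p = 0.0309) and the translocon subunit Sec61b by 2.29 ± 0.44 (adjusted p = 0.0243). Of 22 genes of mucin-type glycosylation, 2 rose, B3gnt3 and B4galnt2 (1.66 ± 0.29 and 2.75 ± 0.70, SE), and of 22 other goblet cell genes 1 rose, the transcription factor Foxa3 (1.80 ± 0.30, SE, adjusted p = 0.0163). None of 11 other mucins passed in adjacent epithelium. With the arrays quantile normalized again, 2 endoplasmic reticulum genes passed, Pdia3 and Ssr2, and 0 of the glycosylation, other goblet cell and other mucin genes, against 0.421% of all genes higher (limma adjusted p of B3gnt3 0.0567, B4galnt2 0.0749 and Foxa3 0.0569).

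Single markers of other cell types passed in adjacent epithelium, at the same 2.91% of all genes called higher. Pla2g2a of Paneth cells was higher in KO by 2.18 ± 0.54 (adjusted p = 0.0427, 1 of 6), Dcn of fibroblasts by 1.53 ± 0.34 (adjusted p = 0.0315, 1 of 8) and Mcpt1 of mast cells by 2.53 ± 0.53 (adjusted p = 0.0286, 1 of 8 immune genes). None of these 3 passed with the arrays quantile normalized again (limma adjusted p = 0.218, 0.108 and 0.0567). The 7 epithelial markers were all higher in KO adjacent epithelium by 0.81 to 3.24 without any passing, and the part of cell content in these differences was not tested.

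In tumor epithelium the same lists of mucin production held 3 calls, where 1.08% of all genes were called. Spcs1 was higher in KO by 2.58 ± 0.49 (SE, adjusted p = 0.046) and Dnajb9, a chaperone cofactor of the unfolded protein response, was lower by −1.48 ± 0.28 (adjusted p = 0.0466), as 1 gene up and 1 down of 31. B3gnt3 was higher by 1.27 ± 0.24 (adjusted p = 0.0455), the only call among 22 glycosylation genes. Of 22 other goblet cell genes 0 passed. The one of them with the smallest p was Atoh1, the secretory lineage transcription factor, which differed by 1.38 ± 0.42 (SE, adjusted p = 0.105). Of 8 fibroblast genes Col3a1 was higher (1.21 ± 0.24, adjusted p = 0.0478), and of 8 immune genes S100a8 was lower (−1.39 ± 0.25, adjusted p = 0.0438).

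With the replicate block in tumor epithelium, 3 of 22 glycosylation genes were higher and 0 lower, and 3 of 31 endoplasmic reticulum genes were higher and 1 lower, against 2.15% of all genes higher and 1.77% lower. Of other goblet cell genes 0 of 22 passed, and of other mucins 1 of 11 was lower. Against floxed tumor array 3 alone most calls of these lists were downward, as 2 glycosylation genes were higher and 9 lower, and 2 endoplasmic reticulum genes were higher and 8 lower. In that fit 9.47% of all genes were called higher and 9.92% lower, and the median of the glycosylation genes was −0.20, against 0.12 with all floxed arrays. Spcs1, Dnajb9, B3gnt3, Col3a1 and S100a8 passed in both of these fits with their signs kept.

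Within KO mice, tumor and adjacent epithelium were compared on 5 arrays, none of weak signal. In the fit of 10 arrays, whose spread includes the weak-signal arrays, 0 of 9 goblet cell genes passed (0.0201% of all genes did), and 2 had an unadjusted p under 0.05, Agr2 and Creb3l1, against 2.47% of all genes. Fitted on the 5 KO arrays alone, Agr2 and Creb3l1 passed and were lower in tumor epithelium (2 of 9 lower, against 1.29% of all genes).

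Agr2 read 7.41, 7.31 and 6.77 in KO tumor, against 9.72 and 8.94 in KO adjacent epithelium. The tissues were well separated, and the difference was −2.16 ± 0.27 (SE, n = 3 and 2; limma adjusted p = 0.0124 on 5 arrays; 1 on 10 arrays). Creb3l1 read 4.79, 4.77 and 4.72 in KO tumor, against 5.51 and 5.37 in KO adjacent epithelium, and differed by −0.68 ± 0.13 (SE, adjusted p = 0.0459 on 5 arrays; 1 on 10 arrays). Its 3 tumor arrays had an SD of 0.04, at percentiles 59 to 61.2 of the genes on those arrays. With 1 of the 5 arrays left out in turn, Agr2 differed by −2.55 to −1.77 and passed without KO tumor array 1 or 3, while Creb3l1 passed without KO tumor array 3 only. The 2 conflict arrays, also labelled adjacent epithelium, read 9.41 and 6.34 for Agr2 and 6.10 and 4.81 for Creb3l1. Conflict array 1 thus lay with or above the KO adjacent arrays and conflict array 2 near the KO tumor arrays. Over all probe sets conflict array 2 and KO tumor array 2 were the most alike pair of arrays (r = 0.973). The pair hardly stood out, as both KO adjacent arrays also had a largest r of 0.973. Whether the tissue label of conflict array 2 holds was not tested.

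Among the mucus genes themselves, none of Muc2, Tff3, Clca1 and Zg16 passed on the 5 arrays. Muc2 differed by −0.33 ± 0.20 (SE, adjusted p = 0.537 on 5 arrays), with 8.38, 7.86 and 8.17 in KO tumor overlapping 8.72 and 8.21 in KO adjacent epithelium. Tff3 differed by −0.02 ± 0.26 and Clca1 by 0.52 ± 0.39, both with overlapping arrays. Zg16 was the gene that lay higher in tumor without overlap, 9.32, 9.24 and 10.06 in KO tumor, against 8.70 and 8.50 in KO adjacent epithelium (0.94 ± 0.24, SE, adjusted p = 0.112). Whether Muc2 and Agr2 differ in their tissue difference was not tested.

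Spdef, at 5.84, 5.55 and 5.63 in KO tumor against 6.13 and 6.28 in KO adjacent epithelium, differed by −0.53 ± 0.15 (SE, adjusted p = 0.135 on 5 arrays). Spink4, at 5.75, 5.53 and 5.66 in KO tumor against 6.73 and 5.87 in KO adjacent epithelium, differed by −0.66 ± 0.23 (SE, adjusted p = 0.255). Retnlb differed by −0.40 ± 0.20. Lower in tumor without overlap were thus Agr2, Spdef, Spink4 and Creb3l1, 4 of 9, against 14.1% of all genes, and higher was Zg16, 1 of 9, against 17.9%. The difference was above 0 for 2 of 9 genes, against 57.3% of all genes, and the median was −0.40, against 0.04 over all genes.

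**Figure D3:**
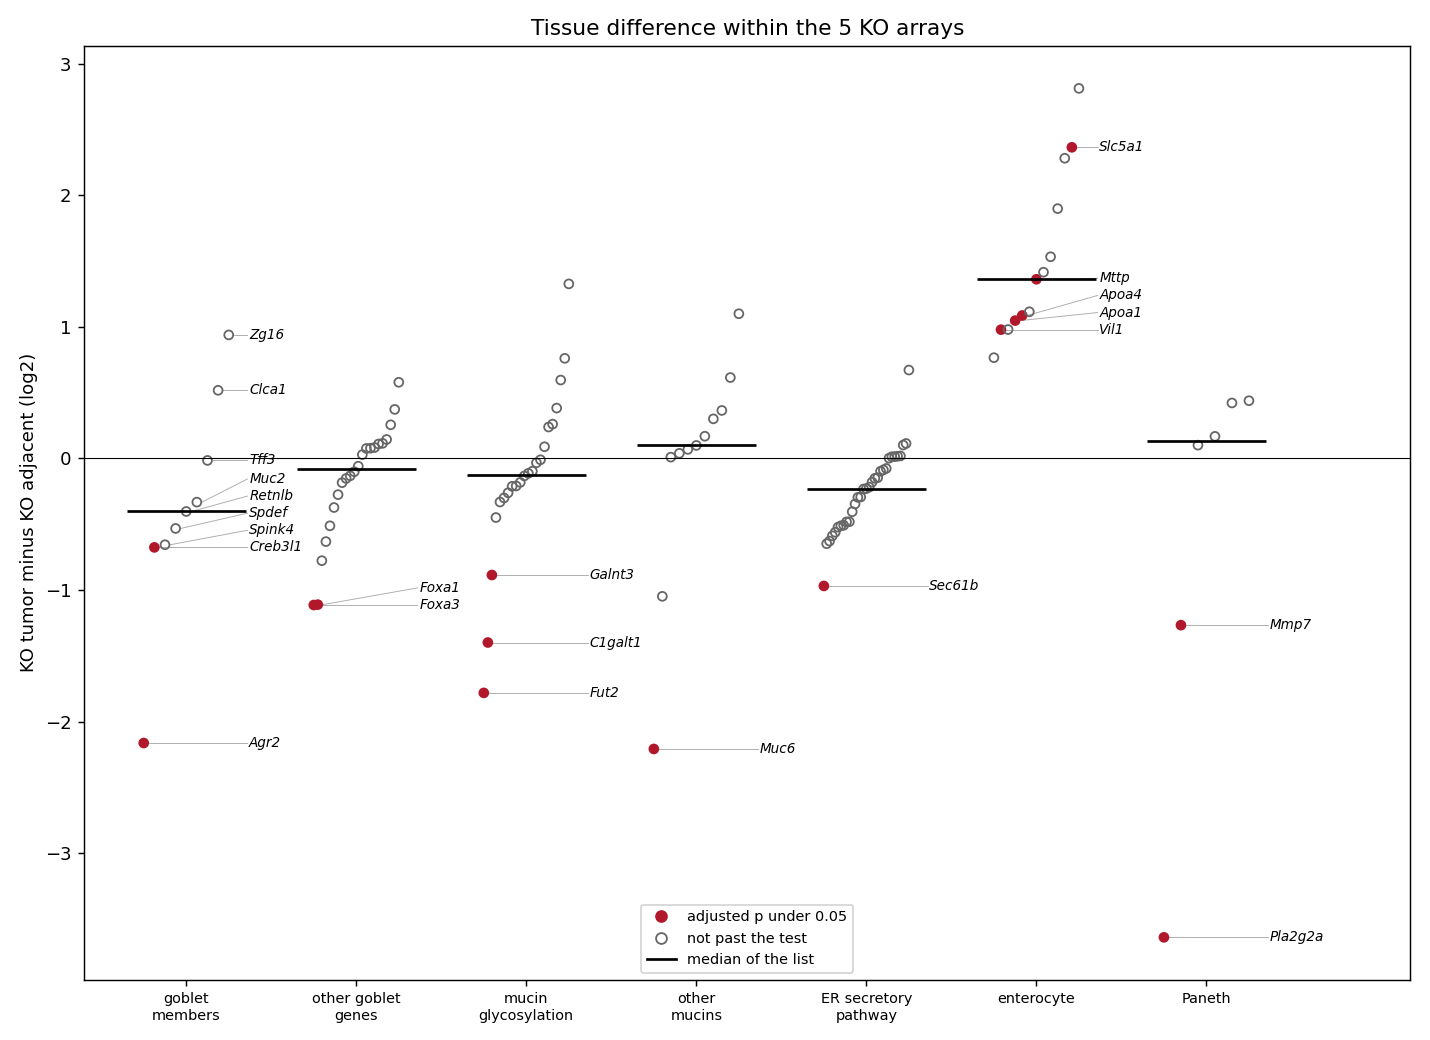
Tumor minus adjacent difference (log2, vertical axis) within the 5 KO arrays for the goblet cell genes and 6 other lists; each point is a gene, filled points passed at a limma adjusted p under 0.05 in the fit of these 5 arrays, and bars are list medians. Agr2 (−2.16) and Creb3l1 (−0.68) passed among the 9 goblet cell genes, and 5 of 13 enterocyte genes passed upwards.

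Among genes that serve mucin production, the calls of the 5-array fit were all downward in KO tumor epithelium, where 1.29% of all genes were called lower. The transcription factors Foxa3 and Foxa1 fell by 1.11 each (adjusted p = 0.0207 and 0.0493), 2 of 22 other goblet cell genes. Of 22 glycosylation genes 3 fell. They were Fut2, a fucosyltransferase of the secretor type (−1.78 ± 0.28, SE, adjusted p = 0.0279), C1galt1, which builds the core of O-glycans (−1.40 ± 0.19, adjusted p = 0.0182), and Galnt3, which starts them (−0.89 ± 0.18, adjusted p = 0.049). Muc6, a gel-forming mucin of gastric and Brunner glands, read 4.21, 4.67 and 5.17 in KO tumor, against 6.83 and 6.95 in KO adjacent epithelium (−2.21 ± 0.25, SE, adjusted p = 0.00949), 1 of 11 other mucins. Sec61b fell by 0.97 ± 0.16 (adjusted p = 0.0293), 1 of 31 endoplasmic reticulum genes, which is near the share of all genes. These calls rest on the 5-array fit, and 0 genes of these 4 lists passed on 10 arrays, where 492 of all genes had an unadjusted p under 0.05. By sign alone the lists were mixed. Of 11 other mucins, 9 differed above 0 and 2 below, with a median of 0.099. Of 22 other goblet cell genes, 10 were above 0 and 12 below, and of 22 glycosylation genes 7 and 15. Endoplasmic reticulum genes had 8 above 0 and 23 below.

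Genes of other epithelial cell types also differed in the same arrays. Enterocyte genes averaged 8.02 to 8.70 in KO tumor and 6.41 to 7.32 in KO adjacent epithelium. Of 13, 5 rose in tumor in the 5-array fit, against 0.557% of all genes, among them the glucose transporter Slc5a1 (2.37 ± 0.35, SE, adjusted p = 0.0227) and Mttp, which loads lipoproteins (1.36 ± 0.23, adjusted p = 0.0319). Paneth cell genes averaged 4.12 to 5.57 in KO tumor and 5.43 to 5.44 in KO adjacent epithelium. Of 6, 4 differed above 0 and 2 below, with a median of 0.135. The 2 below 0 passed, where 1.29% of all genes were called lower. They were the phospholipase Pla2g2a (−3.64 ± 0.45, adjusted p = 0.0127) and the protease Mmp7 (−1.27 ± 0.23, adjusted p = 0.0395). The stem cell marker Lgr5 fell by 1.28 ± 0.21 (adjusted p = 0.0307), 1 of 6 stem cell genes. The keratin Krt18 also fell (−1.74 ± 0.25, adjusted p = 0.0202), 1 of 7 epithelial markers. Dcn of fibroblasts (−1.23 ± 0.19) and Mcpt1 of mast cells (−2.98 ± 0.20) were lower in tumor, each 1 of 8 genes. The fibroblast genes had 1 difference above 0 and 7 below. Most immune genes went the other way from Mcpt1, with 6 above 0 and 2 below (median 0.038). The part of cell composition in the differences of Agr2 and Creb3l1 was not tested.

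Within floxed mice, tumor and adjacent epithelium were compared on 5 arrays of which 4 were of weak signal. None of the 9 goblet cell genes passed (limma, 0 of 9, against 0.00502% of all genes), and 1 had an unadjusted p under 0.05. That gene was Zg16, at 7.80, 7.27 and 9.93 in floxed tumor, against 6.57 and 6.18 in floxed adjacent epithelium, a difference of 1.95 ± 0.63 (SE, adjusted p = 0.279). It was the 1 of 9 genes higher without overlap, against 8.64% of all genes. Zg16 thus lay higher in tumor without overlap in floxed as in KO mice, and passed in neither. Clca1 differed by 1.73 ± 0.79 (adjusted p = 0.403), with 1 of its 3 tumor arrays below the higher adjacent array.

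The difference between the genotypes in their tissue difference was tested as an interaction. No goblet cell gene passed (0 of 9, with 0% of all genes called), and Agr2 was the 1 gene with an unadjusted p under 0.05, against 6.42% of all genes. Its interaction was −2.83 ± 1.08 (log2, SE, adjusted p = 0.719), from a tumor minus adjacent difference of −2.16 in KO and 0.66 in floxed mice. Creb3l1 gave −0.66 ± 0.36 (adjusted p = 0.819). The floxed side of both rests on 4 weak-signal arrays out of 5.

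Over all 12 arrays, 6 tumor against 6 adjacent, 0 of 9 goblet cell genes and 0% of all genes passed, and 0 of 9 had an unadjusted p under 0.05, against 2.57% of all genes. Zg16 had a difference of 1.10 ± 0.57 (SE, limma adjusted p = 1) and Creb3l1 one of −0.48 ± 0.24 (adjusted p = 1). Both had the signs seen in the KO arrays. The adjacent side includes conflict array 2, which was most alike to KO tumor array 2 (r = 0.973).

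Conflict array 1 carried a strong signal of gastric mucous genes. The mean of Tff1, Tff2, Gkn1, Gkn2, Muc5ac and Muc6, which mark the mucous cells of the stomach, was 10.43 there and 4.42 to 7.05 on the other 11 arrays. Muc5ac, the surface mucin of the stomach, read 9.91 and the gastrokine Gkn2 read 11.85. On this array Clca1 (8.90), Spink4 (7.80) and Creb3l1 (6.10) had their highest values of 12 arrays, and Agr2 (9.41) its next to highest. Muc2, the intestinal mucin, read 5.21 there, below the other 7 arrays without weak signal, which ran from 7.36 to 8.72. KO tumor array 3 and floxed tumor array 3 had the next gastric means, 7.05 and 6.86, with Agr2 at 6.77 and 7.64. The part of gastric-type epithelium in the values of Agr2, Spink4 and Creb3l1 was not tested.

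**Figure D4:**
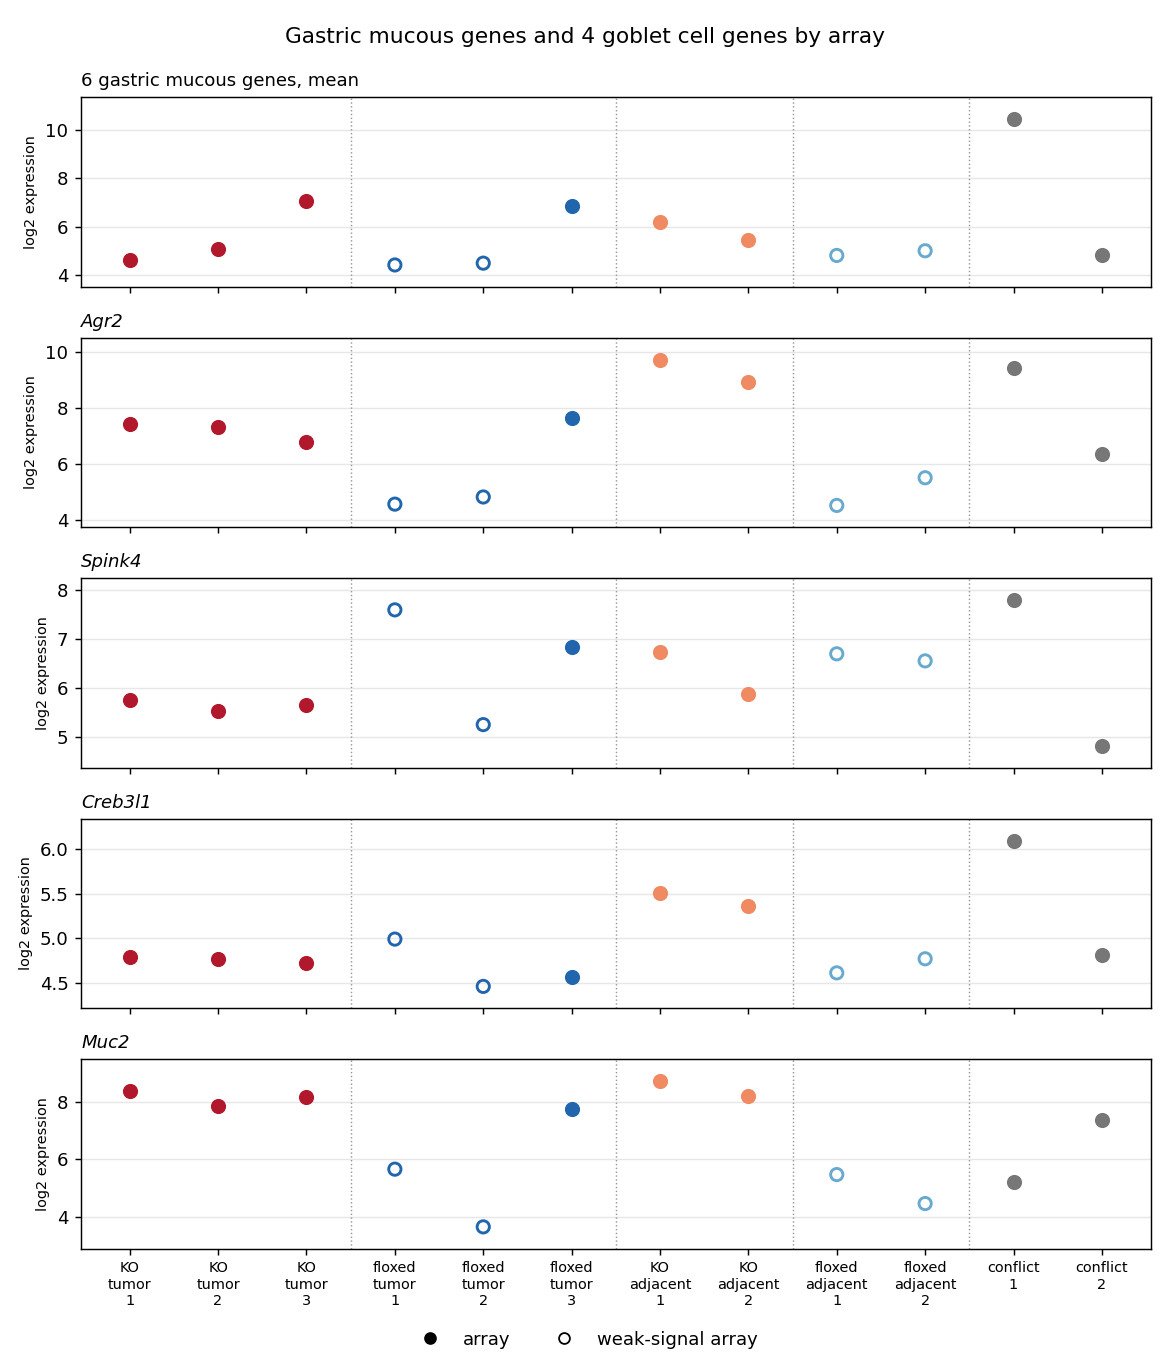
Log2 expression (vertical axes) on each of 12 arrays for the mean of 6 gastric mucous genes and for Agr2, Spink4, Creb3l1 and Muc2; open circles are weak-signal arrays and dotted lines separate groups. Conflict array 1 has the highest gastric mean (10.43) and high Agr2, Spink4 and Creb3l1, with Muc2 at 5.21.

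Genes with a pattern most like the mean of the 9 goblet cell genes over the 12 arrays were named by Pearson correlation, as a description with no test. They were Pja2 (r = 0.964), Fdft1 (0.962), Srek1ip1 (0.960), Brk1 (0.959) and Ddx3x (0.957). The points share the split in array signal, and over the 8 arrays without weak signal the same 5 genes had r of 0.71 to 0.87.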

How the data were processed

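RNA of microdissected mouse epithelium was prepared with the GeneChip WT Pico kit, per the labels' protocols, for 12 arrays. The deposited values are log2 expression per probe set and array. Partek and RMA are named, without version, per the submitters' processing notes; filters are not given in the sources used here. Of 35556 probe sets, 21789 had 1 gene symbol, 1621 several and 12146 none in the platform annotation. Each gene took its highest probe set by mean over the arrays, leaving 19938 genes, 999 of them with several. No column was left without a sample.

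The 10 arrays of 4 unambiguous groups were fitted together with limma 3.58.1 (lmFit, eBayes; R 4.3.3), two-sided, with Benjamini-Hochberg adjustment over all genes and calls at an adjusted p under 0.05. A difference is on the log2 scale. Weak-signal arrays had a median correlation with the others under 0.7. The fits were tested on simulated data. The number of arrays limits the precision.

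The members, gene lists and tests were chosen with earlier results of these data known. All 9 measured members are named; of each other list at most 4 genes per comparison are named, those past the test with the smallest p, or at most 2 where none passed. The 5 genes most correlated with the members' mean and Ppard are also named. The genes named on conflict array 1 were chosen after their values were seen.

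Same-numbered KO and floxed tumor arrays, by title number, deviated together across genes (r = 0.105, 0.121 and 0.347), and by the rule of every pair above 0.1 the blocked values stand beside that comparison. No label states what a number shares. Alternatives covered scaling, dim genes, probe sets, variance options, array weights, arrays in the fit, the replicate block, conflicting labels, each array left out and the threshold.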

Additional observations from a re-analysis of the deposited data

Results flagged for a closer look

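Retnlb on floxed tumor array 2 read 4.97 (log2), far above the other 5 tumor arrays, which lay between 2.16 and 3.21. The gap to the nearest array was 0.627 of the whole range, just above the limit of 0.625 for 6 arrays. It was the only such value in 18 sets of arrays examined, and chance gives about 1 in 20. The array is of weak signal, and the part of that in the value was not tested.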

How the results depend on the processing

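The 2 genotype comparisons and the comparison within KO mice changed most with the settings, and the cause was not tested. In tumor epithelium the 0 calls among 9 goblet cell genes became 5 with array weights (Muc2, Agr2, Clca1, Zg16 and Spdef, with 2907 of all genes called), 2 with the replicate block, and 1 (Spink4) without weak-signal arrays. With each array left out the count ran from 0 to 6, the 6 without floxed tumor array 3. Over all genes the 215 calls ran from 0 to 5793. KO minus floxed turned negative for Tff3 with renewed quantile normalization (−0.20), with a common median and SD (−0.37), without floxed tumor array 2 (−0.25, over left-out arrays −0.25 to 0.787) and without weak-signal arrays (−0.75). It did so for Creb3l1 with quantile normalization (−0.005), array weights (−0.012) and without floxed tumor array 2 (over left-out arrays −0.014 to 0.252). Without weak-signal arrays it also turned for Agr2 (−0.48), Zg16 (−0.39) and Spdef (−0.29).

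In adjacent epithelium the 2 calls became 0 with quantile normalization, with a common median and SD, with the conflict arrays grouped by title or by characteristic, and with any 1 array left out (0 to 0). They became 1 (Agr2) without the dimmest 30% of genes, over all probe sets, or with trend and robust options. They became 5 with array weights or a threshold of 0.1, 6 with only the 4 arrays compared, and 4 with the replicate block. Over all genes the 1209 calls ran from 1 to 4034. Tff3 turned to −0.11 with quantile normalization and −0.14 with a common median and SD, and Spink4 to 0.78 with the conflict arrays by title and 0.11 without KO adjacent array 2 (over left-out arrays −0.756 to 0.107). No fit without weak-signal arrays was possible there, since no floxed adjacent array was left.

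Within KO mice the 0 calls became 3 with array weights (Agr2, Zg16 and Creb3l1) and 2 on the KO arrays alone. The fit without weak-signal arrays repeats the fit on the KO arrays alone, since floxed tumor array 3, alone in its group, adds no spread. On the KO arrays alone with each array left out, an alternative chosen after the data were seen, the count ran from 0 to 3. Over all genes the 4 calls ran from 0 to 1042. Tff3 turned to 0.13 with quantile normalization, 0.02 with a common median and SD, 0.19 and 0.29 with the conflict arrays by title and by characteristic, and ran from −0.271 to 0.242 with an array left out, in both fits (above 0 at 0.013, 0.186 and 0.242 without KO tumor array 1, KO tumor array 2 and KO adjacent array 1). Muc2 turned to 0.75 and 0.038 with the conflict arrays by title and by characteristic, and Clca1 to −0.13 with the replicate block. Agr2 and Creb3l1 stayed below 0 in all 23 alternatives, among which that repeated fit is counted separately. The count stayed at 0 of 9 in all 17 alternatives within floxed mice, all 21 of the interaction and all 24 over all arrays. The interaction of Creb3l1 turned to 0.022 with the conflict arrays by characteristic. In adjacent epithelium the replicate block raised the endoplasmic reticulum calls to 12 of 31 and the glycosylation calls to 8 of 22, all higher, with 1255 of all genes called higher. It changed no other call of the 9 goblet cell genes. Same-numbered arrays of KO and floxed adjacent epithelium correlated at 0.01 and 0.01 in their deviations, and those of KO tumor and KO adjacent at 0.012 and −0.129. In a group of 2 arrays the deviations mirror each other, so the values 0.01 and 0.01 are equal by construction. Such values cannot tell whether same-numbered arrays share more than a number.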

Other observations

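The probe set shared by Fcgbp and 9530053A07Rik cannot be assigned to either gene. It read 6.01, 5.61 and 5.96 (log2) in KO tumor, against 4.72, 4.45 and 5.22 in floxed tumor epithelium. In adjacent epithelium it read 5.70 and 5.74 in KO, against 4.46 and 4.67 in floxed mice, and 5.24 and 5.46 on the conflict arrays. On this probe set the KO arrays lay above the floxed arrays in both tissues, and no test was made. Of all genes, 13.2% did so in tumor and 32.1% in adjacent epithelium. Of the floxed arrays only tumor array 3 was not of weak signal. On 2 further probe sets, shared by Fcgbp, Gm31005 and Rpl41 and likewise not assignable to any of them, that array read 9.975 and 9.899. Both values lay above every KO tumor array (at most 9.179 and 8.422), while in adjacent epithelium KO again lay above floxed.

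Conflict array 1 was also highest of the 12 arrays for several genes of mucin production outside the goblet cell set. Rep15 read 8.09 there, Galnt7 read 7.82, C1galt1 read 6.84, and Ern2, a sensor of endoplasmic reticulum stress in mucous cells, read 6.72. On the other 11 arrays these genes reached at most 6.25, 6.42, 6.20 and 6.05. They were picked after their values were seen, and the share of all genes highest on this array was not counted. Other genes of the same lists were low there. Atoh1 (3.99) and St3gal4 (5.01) lay below every other array without weak signal. How many list genes went each way was not counted.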
